A study of Arabidopsis thaliana with 16 samples.

Results

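The genes described here are 46 nuclear genes of the photosynthetic apparatus of Arabidopsis thaliana, among 32548 genes with a value in the deposited tables. They were chosen by locus, from what their products are: the light-harvesting genes LHCA1 to LHCA6 and LHCB3 to LHCB6, the nuclear subunits of photosystem I (PSA) and photosystem II (PSB), the Rieske protein gene PETC and the plastocyanin genes PETE1 and PETE2, the ATP synthase genes ATPC1 and ATPD, the Rubisco small subunit genes (RBCS), Rubisco activase (RCA), and GAPA and GAPB. The antenna genes LHCB1 and LHCB2 are not among them. All 46 were protein-coding, lay on the nuclear chromosomes and had the same start and end in the RefSeq annotation.

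The measured mark is lysine 2-hydroxyisobutyrylation (Khib), an acyl group on histone lysines, mapped by chromatin immunoprecipitation with an anti-Khib antibody and sequencing. Whole untreated seedlings, 12 days old and grown at 22 °C with 16 h of light, came from 4 genotypes: the wild type Col-0, the quadruple mutant line sant-null, an EMS-induced line of the histone deacetylase gene HDA6, and a T-DNA insertion line of the histone deacetylase gene HDA9. The series has 2 ChIP and 2 input libraries per genotype, 16 in all, but the deposited tables hold 1 ChIP value per gene and genotype, so differences could not be checked against replicates and none was tested. Intervals are 95% exact binomial (Clopper-Pearson) intervals of a fold and cover counting error only. The gene values are whole reads, odd as often as even, at a library total of 38.77 M for hda9, 18.6 M for Col-0, 16.75 M for hda6 and 12.0 M for sant-null. The island tables described further on imply other totals, 73.7 M, 35.8 M, 34.2 M and 25.7 M, and at LHCB4.1 in sant-null an island inside the gene has 780 reads in the authors' deposited table where the gene value stands for 599. How the reads of both kinds of table relate is not known, and the intervals hold for the reads of the gene tables only. Where 4 values follow each other below, they stand in the order Col-0, sant-null, hda6, hda9. The reads per member ranged from 107 to 696 in sant-null, the shallowest table, and from 393 to 1559 in hda9, the deepest. Input libraries were not used here, and background reads are part of each level. In whole seedlings a smaller share of green cells and less of the mark per cell cannot be told apart.

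The proteins of these genes are made in the cytosol and imported into the chloroplast, where the photosystems and their chlorophyll-binding antennae capture light, the cytochrome b6f complex and plastocyanin carry electrons between them, and ATP synthase and the Calvin cycle use what they produce. In green seedlings such genes are among the most strongly transcribed of the nuclear genome. Acyl marks on histone lysines, Khib among them, are found over transcribed genes, and some deacetylases can also remove acyl groups other than acetyl.

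In Col-0 the mark was high over these genes. The median member had 19.1 RPKM (reads per kilobase of gene, scaled to library depth, counted over the whole span from start to end, exons, introns and untranslated regions included), against 5.78 RPKM over the 31805 genes that reached 1 RPKM in 2 or more genotypes. All 46 members passed that filter, and all 46 stood above the median gene in Col-0. Their median place was percentile 89.6, from 52.3 to 99.1. Members differed among themselves 9.59-fold, from 6.09 RPKM at ATPC1 to 58.3 RPKM at LHCB6.

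The 6 highest members in Col-0 were all antenna genes. LHCB6 (AT1G15820, chromosome 1, 5446462 to 5447880, minus strand, TAIR10), which encodes a minor antenna protein beside the photosystem II core, had 58.3 RPKM. LHCB4.2 (AT3G08940, chromosome 3, 2717557 to 2718923) had 47.4 RPKM and LHCB4.1 (AT5G01530, chromosome 5, 208866 to 210548) had 46. They are copies for the antenna protein CP29. Antenna genes of photosystem I followed, with 37.9 RPKM at LHCA1 (AT3G54890), 33.1 at LHCA4 (AT3G47470) and 33.0 at LHCA2 (AT3G61470). The 6 lowest members came from several complexes. ATPC1 (AT4G04640, chromosome 4, 2350498 to 2352025), the gamma subunit gene of chloroplast ATP synthase, had 6.09 RPKM, PETC (AT4G03280, chromosome 4, 1440146 to 1441863) had 7.20 and GAPA (AT3G26650, chromosome 3, 9794862 to 9797045) had 7.36. PSAN had 8.33 RPKM, RBCS1B 8.81 and PSBQ-2 8.997. The rank correlation between the log2 length and the log2 level was -0.19 over the 46 members, whose reads come from the same libraries.

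**Figure D1:**
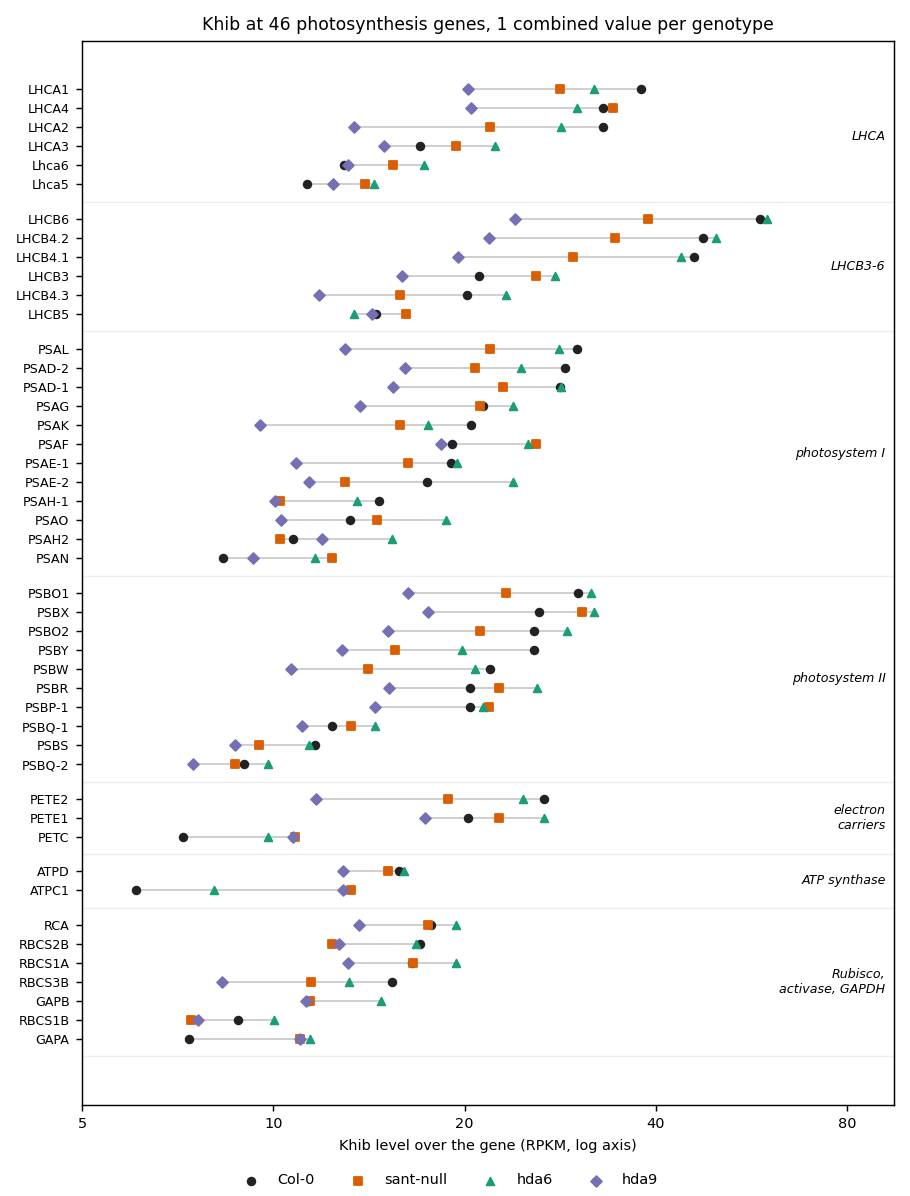
Khib level (RPKM, log axis) of each of the 46 members in the 4 genotypes, 1 combined value each and no error bars since no replicate values were used; rows are grouped by role and ordered by the Col-0 level. The hda9 diamonds lie between 7.46 and 24.0 RPKM, while the Col-0 circles lie between 6.09 and 58.3.

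The order of the 4 genotypes was read first on the deposited RPKM scale. The hda9 value was the lowest of the 4 at 36 of 46 members, while 21.0% of all genes had their lowest value in hda9. It was the highest at 0 members, against 52.4% of all genes. At 26 members the hda6 value was the highest, against 23.9% of all genes, at 13 that of Col-0, against 10.1%, and at 7 that of sant-null, against 13.7%. The lowest value was that of Col-0 at 6 members, against 54.8% of all genes, of sant-null at 3, against 11.0%, and of hda6 at 1, against 13.2%. This order depended on the scaling. With levels divided by the median of all genes, an alternative added after the data were seen, Col-0 was the highest at 31 members (35.1% of all genes), hda6 at 13 (18.8%), sant-null at 2 (12.1%) and hda9 at 0 (34.0%). On that scale hda9 was the lowest at 44 members (40.5%), Col-0 and sant-null at 1 each (18.5% and 17.7%) and hda6 at 0 (23.2%). A lowest value in hda9 at most members was thus seen on both scales, and a highest value in hda6 was not. Genes at the Col-0 level of the median member were in general lower in hda9 than in Col-0. Around a log2(RPKM + 1) of 4.375 in Col-0, 904 protein-coding genes had a median log2 ratio of -0.503. Their 95th percentile was -0.081. The share of such genes with their lowest value in hda9 was not computed. The members' median levels were 19.1, 16.2, 20.3 and 12.9 RPKM. Over all genes past the filter the medians went the other way in hda9, with 5.78, 8.01, 7.28 and 9.002 RPKM.

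The members also stood closer together in hda9. Their highest and lowest levels were 9.59-fold, 5.23-fold, 7.44-fold and 3.21-fold apart, and the SD of log2(RPKM + 1) over the members was 0.70, 0.53, 0.60 and 0.36 in the same order. A narrower spread in hda9 was not particular to these genes: over all genes past the filter the SDs were 1.10, 1.09, 1.17 and 0.76. The hda9 table is also the one with the most reads, and whether depth plays a part was not tested.

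For the comparison of each mutant with Col-0, the log2 ratio of (RPKM + 1) was taken, and a gene was counted as higher or lower past 1.5-fold. This scale understates the change of low genes. The median gene had a log2 ratio of 0.48 in hda9, 0.28 in sant-null and 0.20 in hda6, and which scaling between genotypes is right is not given by the tables. The 3 comparisons share the Col-0 values.

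The comparison of hda9 with Col-0 asks how Khib differs when the deacetylase HDA9 is mutated. Of the 46 members, 19 were at least 1.5-fold lower in hda9, where 9.08% of all genes were, and 1 was higher, where 43.7% of all genes were. The members' median log2 ratio was -0.43, or -0.92 relative to the median of all genes. With equal medians between genotypes 36 were lower and 0 higher (22.3% and 15.4% of all genes).

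The lowest ratios in hda9 were at genes that were high in Col-0. LHCB6 had 58.3, 38.8, 59.9 and 24.0 RPKM. Its fold in hda9 was 0.411 (0.381 to 0.443). LHCA2 had 33.0, 21.9, 28.3 and 13.4 RPKM, with a fold of 0.405 (0.372 to 0.440). LHCB4.1 had 46, 29.7, 43.8 and 19.5 RPKM, a fold of 0.424 (0.393 to 0.457). PSAL (AT4G12800, chromosome 4, 7521257 to 7522761), a photosystem I subunit at the site where mobile antenna docks, had 30.01, 21.9, 28.2 and 13.0 RPKM, a fold of 0.432 (0.391 to 0.478). At these 4 genes hda9 stood far below the other genotypes, sant-null came next, and Col-0 and hda6 lay close together except at LHCA2.

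The highest ratios in hda9 were at ATPC1, GAPA and PETC, the 3 lowest members in Col-0. ATPC1 had 6.09, 13.3, 8.05 and 12.9 RPKM, a fold in hda9 of 2.11 (1.79 to 2.51). GAPA, a subunit of the Calvin cycle glyceraldehyde-3-phosphate dehydrogenase, had 7.36, 11.0, 11.4 and 11.0 RPKM, a fold of 1.497 (1.31 to 1.71). PETC, the Rieske iron-sulphur protein of cytochrome b6f, had 7.20, 10.8, 9.80 and 10.7 RPKM, a fold of 1.49 (1.28 to 1.74). ATPC1 alone passed 1.5-fold on the log2(RPKM + 1) scale. Next came PSAH2 at 11.9 against 10.7 RPKM, with an interval of the fold (0.928 to 1.335) that includes 1. Relative to the median of all genes, the log2 ratios of ATPC1, GAPA and PETC in hda9 were 0.49, 0.041 and 0.035. Against genes of like level they were 0.59, 0.15 and 0.14, so GAPA and PETC lay close to genes in general.

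Across the 46 members the log2 ratio in hda9 followed the Col-0 level, with a rank correlation of -0.87. Over 27001 protein-coding genes it was -0.82. Both use the Col-0 value on both axes, and all points share the same libraries. With the median ratio of genes of like level subtracted, 11 members were at least 1.5-fold lower and 1 higher (10.5% and 9.56% of all genes), and the members' median was -0.17. The lowest members on that scale were RBCS3B at -0.90, PSAK at -0.87 and PSBW at -0.71, and the highest were ATPC1 at 0.59 and PSAF at 0.49.

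**Figure D2:**
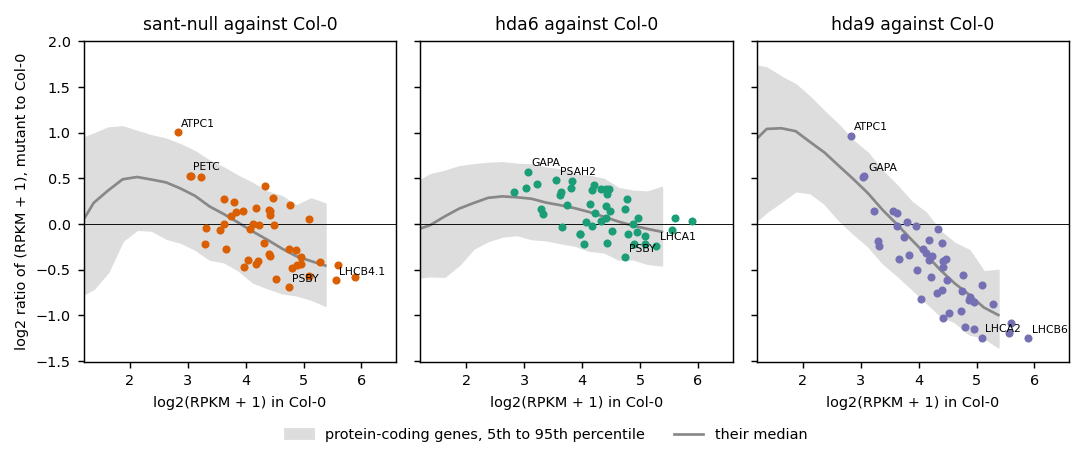
Log2 ratio of (RPKM + 1) of each mutant to Col-0 against log2(RPKM + 1) in Col-0 for the 46 members (points), with the median (line) and the 5th to 95th percentile (band) of protein-coding genes in bins of the Col-0 level. In hda9 the points fall with the line from ATPC1 at 0.97 to LHCB6 at -1.25, and in hda6 they stay between -0.36 and 0.57.

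For sant-null the question is how the mark differs in a quadruple mutant of SANT domain genes. Here 3 members were at least 1.5-fold lower and 1 higher, where 6.01% and 23.7% of all genes were. With equal medians these were 17 lower and 1 higher (13.6% and 8.25% of all genes), and against genes of like level 4 and 1 (8.35% and 7.36%). The 4 lower ones against genes of like level were LHCB6 at -0.67, PSAH-1 at -0.66, PSBY at -0.61 and RBCS1B at -0.60. Only PSBY of them was also lower without this subtraction. The members' median log2 ratio was -0.06, or -0.34 relative to all genes, and 40 of the 46 lay below the median of all genes. PSBY (AT1G67740, chromosome 1, 25394031 to 25395249), a small photosystem II subunit, had 25.7, 15.5, 19.8 and 12.8 RPKM, with a fold in sant-null of 0.604 (0.515 to 0.705). PSBW, another small photosystem II subunit, had 21.9, 14.1, 20.7 and 10.6 RPKM, a fold of 0.643 (0.546 to 0.755). LHCB4.1, given above, had a fold of 0.645 (0.585 to 0.710), and the next was LHCB6 at 0.665 (0.606 to 0.729). The island inside LHCB4.1 had a fold of 0.859 in the authors' deposited table, nearer to 1 than the gene value. PSBW and LHCB4.1 were at -0.52 and -0.39 against genes of like level, short of 1.5-fold.

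The single member past 1.5-fold on the higher side in sant-null was ATPC1, at 13.3 against 6.09 RPKM from 243 and 173 reads, a fold of 2.18 (1.78 to 2.66). PETC had a fold of 1.503 (1.24 to 1.82), GAPA 1.498 (1.27 to 1.77) and PSAN, a lumenal photosystem I subunit near the plastocyanin site, 1.48 (1.199 to 1.83). Relative to the median of all genes, ATPC1 was at 0.73 in log2 ratio, and PETC, GAPA and PSAN were at 0.245, 0.243 and 0.235. ATPC1, PETC and GAPA are also the 3 members with the highest ratios in hda9. Both ratios use the same low Col-0 value, so the comparisons are not independent there. The rank correlation of the ratio with the Col-0 level was -0.60 over the members and -0.42 over protein-coding genes.

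For hda6 the same question is put to the deacetylase HDA6. None of the 46 members was 1.5-fold higher or lower, 0 each way, where 9.08% and 3.05% of all genes were. The members' median log2 ratio was 0.12, below the 0.20 of all genes, and with equal medians it was -0.08. The counts were also 0 each way with equal medians (3.02% of all genes higher, 6.12% lower) and against genes of like level (3.31% and 3.90%). The lowest ratio was at PSBY, with 19.8 against 25.7 RPKM and a fold of 0.771 (0.678 to 0.877). LHCA1 had 32.0 against 37.9 RPKM, PSAD-2 24.5 against 28.7 and LHCA2 28.3 against 33.0, with folds of 0.846, 0.854 and 0.857. On the other side GAPA had 11.4 against 7.36 RPKM, a fold of 1.55 (1.335 to 1.81), short of 1.5-fold on the log2(RPKM + 1) scale. PSAH2 had 15.4 against 10.7 RPKM, PSAO 18.7 against 13.2 and PSAN 11.6 against 8.33, with folds of 1.43, 1.41 and 1.39. PSAH, PSAL and PSAO lie where mobile antenna binds photosystem I, and of these PSAL had 28.2 against 30.01 RPKM.

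By role, the antenna genes of photosystem I were split in hda9. LHCA1, LHCA2 and LHCA4 were at least 1.5-fold lower (9.08% of all genes were), 1 of them also against genes of like level, and LHCA3 had 14.9 against 17.0 RPKM, while LHCA5 and LHCA6, whose proteins join photosystem I to the NDH complex, had 12.4 against 11.3 and 13.1 against 12.9 RPKM. The 6 genes had a median log2 ratio of -0.42 in hda9, which was -0.08 after quantile normalization and 0.04 against genes of like level. LHCA4 alone among the 19 lower members changed sign on the last scale, to 0.13. In sant-null LHCA4 had 34.3 against 33.1 RPKM, unlike LHCA1 at 28.2 against 37.9 and LHCA2 at 21.9 against 33.0.

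Among the photosystem II antenna genes, LHCB4.1, LHCB4.2, LHCB4.3 and LHCB6 were the 4 of 6 that were lower in hda9 (9.08% of all genes were). Against genes of like level 1 was (10.5% of all genes). Their median log2 ratio over all 6 was -0.90 in hda9, -0.39 in sant-null and 0.05 in hda6, and the first 2 kept their sign under each scaling while the last was -0.19 after quantile normalization. LHCB3 (AT5G54270, chromosome 5, 22038165 to 22039568), an antenna protein of the trimer, stood apart, with 21.1, 25.9, 27.7 and 15.9 RPKM. LHCB5, the CP26 gene, had 14.5, 16.2, 13.4 and 14.3 RPKM, 4 values close to each other. The LHCB1 and LHCB2 genes, the main antenna, had higher Col-0 levels, a median of 75.9 RPKM over 8 genes. All 8 were lower in hda9, 5 in sant-null and 1 in hda6, where 9.08%, 6.01% and 3.05% of all genes were, with median log2 ratios of -1.65, -0.61 and -0.38. Against genes of like level 7, 6 and 3 of them were lower (10.5%, 8.35% and 3.90% of all genes), and the median in hda6 was -0.55.

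The photosystem I core subunits held 6 of 12 genes that were lower in hda9 and 0 in sant-null, where 9.08% and 6.01% of all genes were. With equal medians these were 9 and 5 (22.3% and 13.6% of all genes), and against genes of like level 3 and 1 (10.5% and 8.35%). PSAK (AT1G30380), which binds antenna at the edge of the complex, had 20.4, 15.8, 17.5 and 9.52 RPKM, a fold in hda9 of 0.466 (0.404 to 0.536). PSAF (AT1G31330), which docks plastocyanin, had 19.1, 25.9, 25.2 and 18.4 RPKM. On the deposited scale it kept its level in hda9 within counting error, with a fold of 0.962 (0.865 to 1.07). Its Col-0 level was close to that of PSAK. With equal medians the log2 ratio of PSAF in hda9 was -0.535 and that of PSAK -1.51. Against genes of like level they were 0.49 and -0.87. PSAE-1 and PSAE-2, copies for a stromal subunit, had 19.0, 16.3, 19.5 and 10.8 RPKM and 17.5, 13.0, 23.8 and 11.4, so that hda9 was the lowest genotype at both. At PSAE-1 hda6 and Col-0 lay within counting error, with a fold of 1.02 (0.895 to 1.171), and at PSAE-2 hda6 was the highest. With equal medians the log2 ratio of PSAE-1 in hda6 was -0.17. PSAG, which like PSAK sits at the edge of the complex, had 21.4, 21.2, 23.8 and 13.7 RPKM. The 12 genes had median log2 ratios of -0.59 in hda9, -0.25 in sant-null and 0.09 in hda6, and the hda6 value was -0.05 after quantile normalization.

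Of the 10 photosystem II genes, 4 were lower in hda9, PSBO1, PSBO2, PSBW and PSBY, and 2 in sant-null, where 9.08% and 6.01% of all genes were. With equal medians 10 were lower in hda9 and 3 in sant-null (22.3% and 13.6% of all genes), and against genes of like level 3 and 1 (10.5% and 8.35%). The 3 in hda9 were PSBW at -0.71, PSBQ-2 at -0.67 and PSBS at -0.61, while PSBY was at -0.515. PSBO1 and PSBO2 were at -0.20 and -0.18 in hda9 on the last scale. PSBO1 and PSBO2 encode the extrinsic protein that stabilises the manganese cluster. PSBO1 had 30.2, 23.3, 31.6 and 16.3 RPKM, and PSBO2 had 25.7, 21.2, 29.0 and 15.2. Another extrinsic protein, PSBQ, also has a pair of copies. PSBQ-1 (listed as PSBQA) had 12.4, 13.3, 14.4 and 11.1 RPKM and PSBQ-2 had 8.997, 8.72, 9.82 and 7.46, so that PSBQ-1 was the higher copy in every genotype. PSBP-1, the remaining extrinsic subunit, had 20.4, 21.9, 21.4 and 14.5 RPKM, and PSBR, which helps to hold these subunits, had 20.4, 22.7, 26.01 and 15.2. PSBX had 26.2, 30.6, 32.0 and 17.5 RPKM, so that sant-null and hda6 both stood above Col-0 on the deposited scale. In sant-null the interval of its fold included 1. With equal medians the log2 ratio of PSBX was -0.068 in sant-null and 0.08 in hda6. Against genes of like level it was 0.441 and 0.223. PSBS, listed as NPQ4 and needed for the rapid dissipation of excess light, had 11.6, 9.48, 11.4 and 8.69 RPKM. The group's median log2 ratio was -0.51 in hda9, -0.16 in sant-null and 0.09 in hda6, the last -0.05 after quantile normalization.

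Plastocyanin, the soluble electron carrier, has copies with different values. PETE2 (AT1G20340, listed as DRT112) had 26.7, 18.8, 24.7 and 11.7 RPKM, a fold in hda9 of 0.437 (0.391 to 0.488). PETE1 (AT1G76100) had 20.2, 22.7, 26.7 and 17.4 RPKM, a fold of 0.858 (0.758 to 0.974). PETE2 was the higher copy in Col-0 and the lower one in each mutant, and the copies lay 1.32-fold apart in Col-0 and 1.49-fold in hda9. The PSBQ copies lay 1.38-fold apart in Col-0 and 1.49-fold in hda9, with the same copy higher in both. Copies that lay closer were LHCB4.1 and LHCB4.2, 1.03-fold apart in Col-0 and 1.12-fold in hda9, and the PSAD copies, whose proteins dock ferredoxin, 1.02-fold and 1.04-fold. PSAH-1 had 14.6 RPKM in Col-0 and 10.1 in hda9, and PSAH2 10.7 and 11.9, so that their order changed. Copies with near-identical sequence can share reads, and the sources used here do not say how the authors placed such reads.

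The Rubisco small subunit genes were measured at 4 loci. RBCS1A on chromosome 1 (25048158 to 25049667) had 16.6, 16.6, 19.4 and 13.1 RPKM. The other three stand side by side on chromosome 5, from 15376988 at RBCS3B to 15385320 at RBCS1B, and are close copies. RBCS2B had 17.0, 12.4, 16.8 and 12.7 RPKM, RBCS3B 15.4, 11.5, 13.1 and 8.31, and RBCS1B 8.81, 7.43, 10.01 and 7.60. RBCS3B in hda9 was the single one of the 3 past 1.5-fold, on the lower side, where 9.08% of all genes were. Against genes of like level RBCS3B at -0.90 and RBCS1B at -0.67 were lower in hda9 (10.5% of all genes). In sant-null the folds of RBCS2B, RBCS3B and RBCS1B were 0.727, 0.746 and 0.843. The interval of the last (0.703 to 1.01) includes 1. RCA, which keeps Rubisco active, had 17.7, 17.5, 19.4 and 13.6 RPKM. GAPB had 11.4, 11.4, 14.8 and 11.2 RPKM, while its partner GAPA, given above, was at least 1.497-fold above Col-0 in every mutant. ATPD, the delta subunit gene of ATP synthase, had 15.8, 15.1, 16.0 and 12.9 RPKM, whereas ATPC1 of the same enzyme had a fold of 2.11 in hda9. The 7 Rubisco, activase and GAPDH genes had a median log2 ratio of -0.32 in hda9, which was -0.23 after quantile normalization.

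The mark over the members was then set beside that of the 2 nearest listed genes on each side that were not members. In Col-0 the members had a median of 19.1 RPKM and their neighbours 5.98, and 26 of 46 members stood above all 4 neighbours, where 19.8% of all genes do. In hda9 the medians were 12.9 and 8.42 RPKM, and 25 members stood above all 4 (19.7% of all genes). In sant-null and in hda6 28 members did (19.7% and 19.8% of all genes). On the log2(RPKM + 1) scale the median difference between a member and its neighbours was 1.34, 1.01, 1.18 and 0.55. The log2 ratio in hda9 was below that of all 4 neighbours at 27 members (19.1% of all genes), with a median of 0.41 over the neighbours. The corresponding counts were 14 in sant-null (18.9% of all genes) and 11 in hda6 (19.0%). It was above that of all 4 neighbours at 1 member in hda9 (19.5% of all genes), 2 in sant-null (19.8%) and 6 in hda6 (19.7%). Members and neighbours differ in Col-0 level, and the hda9 ratio of all genes falls with that level. With the ratio of genes of like level subtracted, also added after the data were seen, 43 members had 4 neighbours past the filter. Of these, 13 were below all 4 in hda9 (19.7% of all genes), 8 in sant-null (19.4%) and 10 in hda6 (19.5%), and 5, 7 and 8 were above all 4 (19.7%, 19.6% and 19.5%). The median difference to the neighbours in hda9 was then -0.17, against -0.94 before. On the unadjusted scale LHCA2 stood at -1.24 in hda9 with neighbours at a median of 0.61. ATPC1 went the other way, with neighbours at 17.7 RPKM in Col-0 and 15.6 in hda9.

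**Figure D3:**
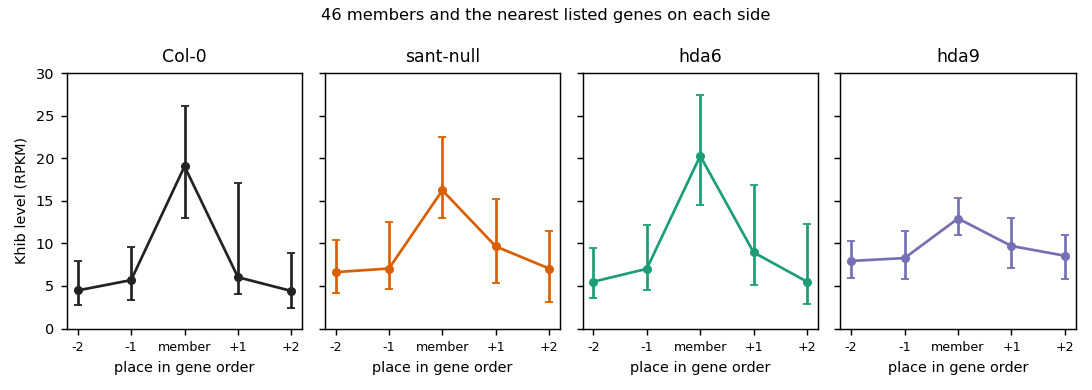
Median Khib level (RPKM) of the 46 members and of the nearest listed genes that are no members, by place in the gene order along the chromosome (not by strand), in each genotype; bars span the 25th to 75th percentile over genes. The members stand at 19.1 RPKM in Col-0 and 12.9 in hda9, over neighbours whose medians lie between 4.41 and 9.70 RPKM over all genotypes and places.

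The authors also deposited tables of islands, stretches enriched in Khib, with a fold and an FDR for each mutant. Only the 14 members on chromosomes 3 and 5 were used, since islands listed on chromosomes 1, 2 and 4 also followed genes of other chromosomes. For islands listed on chromosomes 3 and 5 the rank correlation of their Col-0 signal with gene levels was 0.612 to 0.677 on the same chromosome and -0.004 to 0.049 on others. For islands listed on the remaining chromosomes it was 0.391 to 0.462 and 0.202 to 0.362. Islands overlapped 12 of the 14 members, the exceptions being PSAN and GAPA. In the authors' deposited table for hda9, 15 of 16 islands over members were lower at an FDR under 0.05 and 0 higher, but 96.6% of all islands on these chromosomes were lower and 1.68% higher, a share near that of the members. Their median fold in the authors' deposited table was 0.540, against 0.574 over all islands there. The sant-null comparison of the authors' deposited table had 11 of 14 lower and 1 higher (74.0% and 9.51% of all), and that for hda6 had 6 of 15 lower and 3 higher (37.0% and 22.4%). Median folds in the authors' deposited tables were 0.745 over members and 0.763 over all islands there in sant-null. In hda6 they were 0.891 and 0.952. These FDR values compare 1 count per genotype and not replicates.

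LHCA2 had an island at chromosome 3, 22746001 to 22747000, with a fold of 0.406 in the authors' deposited table for hda9, the lowest at a member. At LHCB3 the island from 22038401 to 22040000 on chromosome 5 had folds of 1.21 in sant-null and 1.18 in hda6 in the authors' deposited table, both called higher. PSBO1 had a pair of islands in the sant-null comparison of the authors' deposited table, with a fold of 0.525 between 29 and 429 bp from its start and 0.824 between 829 and 1629 bp. Each tandem RBCS gene had an island of 200 or 400 bp near its start there, with folds from 0.682 to 0.709 in the authors' deposited table. The median fold over all sant-null islands of chromosomes 3 and 5 was 0.763 in the authors' deposited table. For hda6 the extremes in the authors' deposited table were RBCS2B at 1.24 (15381201 to 15381400 on chromosome 5) and PSAH-1 at 0.729 (5468601 to 5468800 on chromosome 3).

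**Figure D4:**
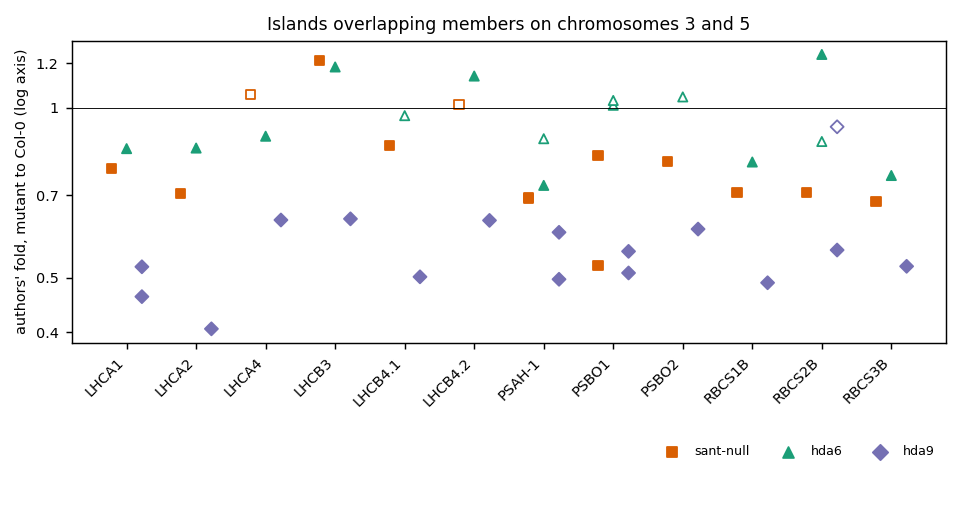
The authors' fold of each mutant to Col-0 (log axis) for islands that overlap a member on chromosomes 3 and 5, from the authors' deposited tables; filled symbols have an authors' FDR under 0.05, open symbols do not, and a gene with several symbols of a kind has several islands. All hda9 diamonds lie below 1, from 0.406 at LHCA2 to 0.926 at RBCS2B.

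Other genes of chlorophyll and carbon metabolism, in lists named for this purpose, were read at the same threshold. Of 24 chlorophyll synthesis genes, 8 were higher and 1 lower in hda9, 7 and 0 in sant-null and 4 and 0 in hda6, with median log2 ratios of 0.35, 0.35 and 0.31. Of all genes 43.7%, 23.7% and 9.08% were higher, and 9.08%, 6.01% and 3.05% lower. Against genes of like level 1 was higher and 1 lower in hda9 (9.56% and 10.5% of all genes). On that scale 0 were either way in sant-null (7.36% and 8.35%) and in hda6 (3.31% and 3.90%). With equal medians the hda9 median was -0.14, and those of sant-null and hda6 were 0.07 and 0.11. LIN2, a coproporphyrinogen oxidase gene, had 4.38 RPKM in Col-0 and 11.9 in hda9, and CHLM, the magnesium-protoporphyrin methyltransferase gene, 18.5 and 10.5. Their median Col-0 level was 10.3 RPKM, lower than that of the members. Of 16 further Calvin cycle genes, 3 were higher and 3 lower in hda9 (43.7% and 9.08% of all genes; 0 and 0 against genes of like level), from SBPASE, sedoheptulose-bisphosphatase, at 9.84 against 4.83 RPKM to CP12-1, a regulator of GAPDH and phosphoribulokinase, at 13.7 against 33.3. In sant-null 1 was higher and 1 lower, SBPASE at 9.27 against 4.83 RPKM and CP12-1 at 20.2 against 33.3, and in hda6 0 were higher or lower. Of 18 other thylakoid protein genes, 4 were higher and 5 lower in hda9 (43.7% and 9.08% of all genes), from FNR1, a ferredoxin-NADP reductase gene, at 12.1 against 6.01 RPKM to PSBTN at 14.8 against 28.4. In sant-null 4 were higher and 1 lower, and in hda6 1 and 0. In hda9 0 were higher and 9 lower with equal medians (15.4% and 22.3% of all genes), and 0 and 1 against genes of like level (9.56% and 10.5%).

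Tissue markers were read as a check of the label, although the tables hold a chromatin mark and not transcripts. The 4 seed storage and oleosin genes had between 14.2 and 34.7 RPKM in Col-0, within the range of the members. In hda9 3 of the 4 were lower (9.08% of all genes), and 0 against genes of like level (10.5%), where their median was -0.06. The 4 root regulators had 3.24 to 29.5 RPKM. A high level in these tables therefore does not by itself mark a green-tissue gene.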

How the data were processed

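The submitters' processing notes name the build TAIR10 and, without roles, bedtools, SICER 1.0.3, Bowtie2 2.2.5 and CASAVA. The sources used here do not say how replicates were combined. The authors deposited RPKM values for 32548 genes, per the file headers; value times length gave whole reads (within 0.01) for 100% of values, which gave the library totals. They also deposited, per the file headers, island read counts, these counts as RPM, a fold (ratio) and p-values with an FDR per direction. Starts are written from 1.

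Computed here (Python 3.11.15, pandas 2.3.3, scipy 1.17.1): log2((RPKM + 1) mutant / (RPKM + 1) Col-0), with 1.5-fold counted among 31805 genes of at least 1 RPKM in at least 2 of 4 genotypes; exact fold intervals; neighbours; and island overlap of at least 1 bp. No replicate values exist in the tables, so no test was run. Steps were tested on simulated data. Named genes are the members, the 4 highest and 4 lowest per mutant, the 6 highest and 6 lowest in Col-0, copies, and extremes of further lists; other members described by role were chosen after their values were seen. Members and lists were chosen with earlier results of these data known. The "like level" ratio subtracts the median of 50 bins of the mean log2 level of mutant and Col-0. Promoter motifs and protein identities were not analysed here. No columns were left unmapped.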

Additional observations from a re-analysis of the deposited data

How the results depend on the processing

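No paired analysis was possible because the tables hold 1 value per genotype, and leaving out a replicate was not possible for the same reason. For each comparison the numbers of members higher and lower and their median were recomputed. Leaving out the filter on low values could not change any of the 9, since all 46 members passed it. In sant-null (3 lower, median -0.06) 5 members were lower with a pseudocount of 0.1, 17 with equal medians, 5 after quantile normalization and 0 at 2-fold, and the median was -0.34 with equal medians, -0.19 after quantile normalization, -0.125 against genes of like level and -0.014 with 1 value per set of copies. In hda6 (0 higher, median 0.12) 1 member was higher with a pseudocount of 0.1, and the median reversed to -0.081 with equal medians, -0.055 after quantile normalization and -0.047 against genes of like level, and was 0.15 with 1 value per set of copies; equal medians centre the ratios by construction. In hda9 (19 lower, 1 higher, median -0.43) 36 were lower and 0 higher with equal medians (22.3% and 15.4% of all genes). Against genes of like level 11 were lower (10.5% of all genes), and at 2-fold 7 were lower and 0 higher. The hda9 median was -0.92, -0.40, -0.17 and -0.40 with equal medians, quantile normalization, like level and 1 value per set of copies. LHCA4 in hda9 reversed from -0.66 to 0.13 against genes of like level. With islands of all 5 chromosomes, 5 were higher and 27 lower in sant-null, 15 and 11 in hda6 and 5 and 41 in hda9. More members enter there, but islands listed on chromosomes 1, 2 and 4 also followed genes of other chromosomes. The share called over all islands of the 5 chromosomes was not computed. Median folds in the authors' deposited tables were 0.921, 1.01 and 0.726 over members, and 0.902, 0.997 and 0.778 over all islands. In settings added after the data were seen, equal medians gave as highest genotype Col-0 at 31 (13), hda6 at 13 (26) and sant-null at 2 (7) members, and as lowest Col-0 at 1 (6), sant-null at 1 (3) and hda6 at 0 (1), with the count as reported in parentheses. The shares of all genes for this order are given with it above. With like level subtracted, 8 members in sant-null and 13 in hda9 were below all neighbours (19.4% and 19.7% of all genes). Above all neighbours were 7 and 5 (19.6% and 19.7%). Other causes were not tested.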

Other observations

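Regulators of photosynthesis genes were read beside the members. Of 12 such genes, 5 were at least 1.5-fold higher and 2 lower in hda9, 4 and 0 in sant-null and 1 and 0 in hda6. The shares over all genes were 43.7% and 9.08%, 23.7% and 6.01%, and 9.08% and 3.05%, so the number higher in hda9 and in hda6 is near that of any genes. In the order Col-0, sant-null, hda6, hda9, GLK1 (listed as GPRI1) had 21.6, 17.4, 23.0 and 13.2 RPKM and GLK2 18.7, 13.9, 17.6 and 10.8. They encode transcription factors that activate many photosynthesis genes, and both were past 1.5-fold lower in hda9. The bZIP gene HY5, which promotes light-induced transcription, had 8.997, 9.97, 9.92 and 9.51 RPKM. The 5 higher genes in hda9 were sigma factor genes, whose products direct the plastid RNA polymerase, with 9.26 against 3.94 RPKM at SIG3 (listed as SIGC) and 10.01 against 4.998 at SIG6 (listed as SIGF). In hda9 0 of the 12 genes were higher and 3 lower with equal medians (15.4% and 22.3% of all genes). Against genes of like level 0 were higher and 2 lower (9.56% and 10.5% of all genes). These 2 were CGA1 at -0.92 and HYH at -0.68, while GLK1 at -0.303 and GLK2 at -0.578 fell short of 1.5-fold.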
